A study of Homo sapiens with 11 samples.

Results

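The 34 genes described here are the Hippo pathway kinases and their regulators, the transcriptional coactivators YAP1 and WWTR1 (the gene of TAZ), the TEAD DNA-binding factors, and a set of genes reported as YAP-TEAD targets. They were taken by name from the 58721 gene rows of the count table, and all 34 were found there. CCN1 and CCN2 stand there under the older symbols CYR61 and CTGF. The RNA came from A375 cells, a human melanoma line with an activating BRAF mutation, labelled WT for genotype in every group. Withdrawn cells (5 libraries) had been off the drug for 4 weeks, persister cells (5 libraries) had spent 8 weeks in 2 nM trametinib, an inhibitor of the MEK kinases that act below BRAF, and parental cells (1 library) were untreated. Each withdrawn sample carries the number of a persister culture in its title.

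Libraries held 56513920 to 82984566 counts. A single line was used, and the labels do not say whether the numbered cultures were selected independently, so the p-values reflect the variation among these cultures alone and that variation may be technical. Parental cells have no replicate, so their library was taken to vary like the other 10. Melanocyte lineage markers summed to 1034 to 1140 CPM in withdrawn, 392 to 1003 CPM in persister and 790 CPM in parental libraries (CPM is the read count normalised to library size). Of the 7 tested, 3 rose and 3 fell after withdrawal, and in persister cells 4 were above and 2 below the parental level. SOX10 averaged 814 CPM in withdrawn and 51.9 CPM in persister cells, with 635 CPM in the parental library, and DCT 34.2 and 424 CPM, with 2.94 CPM in the parental library. Leukocyte markers summed to 3.48 to 4.97, 0.507 to 0.867 and 7.07 CPM, most of it LYZ in withdrawn and parental libraries (4.09 CPM on average and 6.79 CPM). PTPRC, the general leukocyte marker, was at most 0.474 CPM in any library, higher in persister cells than in the parental library (edgeR adjusted p = 0.0416), where it had 1 count. The part of these markers in the results was not tested. Persister libraries 1 and 5 stood apart, with proliferation genes summing to 1306 and 549.9 CPM and mitochondrially encoded genes taking 8.88% and 9.28% of counts. In the other persister libraries those figures were 3198 to 4363 CPM and 4.51% to 6.72%, in withdrawn libraries 3494 to 3776 CPM and 3.15% to 3.70%, and in the parental library 4227 CPM and 2.96%.

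In the Hippo pathway the kinases STK3 and STK4 (MST2 and MST1), with the scaffold SAV1, activate the kinases LATS1 and LATS2, which phosphorylate YAP1 and TAZ and so keep them out of the nucleus. When this phosphorylation is low, YAP1 and TAZ enter the nucleus, bind TEAD factors and switch on genes such as CCN1, CCN2 and ANKRD1. Several of the targets, AMOTL2 and LATS2 among them, encode inhibitors of the pathway's output and form negative feedback. Transcript levels do not show where YAP1 and TAZ proteins are in the cell, nor how they are phosphorylated.

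The sequences that come first are the 250 bases upstream of the start sites of the 3 targets with the largest fitted falls after withdrawal, shown because the letters that TEAD factors bind can be read in them. They come from the RefSeq promoter table (GRCh38.p14) and run 5′ to 3′ on the gene's strand. Capitals mark matches to CATTCC or its reverse complement GGAATG (the core of the TEAD motif), and to TGANTCA (the AP-1 motif). THBS1 is shown from chr15:39580829-39581078, plus strand, ANKRD1 from chr10:90921088-90921337, minus strand, and CCN2 from chr6:131951373-131951622, minus strand.
THBS1: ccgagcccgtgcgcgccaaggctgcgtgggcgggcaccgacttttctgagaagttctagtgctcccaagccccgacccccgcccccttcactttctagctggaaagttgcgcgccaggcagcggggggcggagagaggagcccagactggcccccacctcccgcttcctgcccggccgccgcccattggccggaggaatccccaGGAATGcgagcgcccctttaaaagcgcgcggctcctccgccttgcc
ANKRD1: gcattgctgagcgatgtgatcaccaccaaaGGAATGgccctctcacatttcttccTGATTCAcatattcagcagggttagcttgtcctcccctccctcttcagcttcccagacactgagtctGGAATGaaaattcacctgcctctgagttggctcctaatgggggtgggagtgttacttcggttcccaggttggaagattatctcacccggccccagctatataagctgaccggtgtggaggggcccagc
CCN2: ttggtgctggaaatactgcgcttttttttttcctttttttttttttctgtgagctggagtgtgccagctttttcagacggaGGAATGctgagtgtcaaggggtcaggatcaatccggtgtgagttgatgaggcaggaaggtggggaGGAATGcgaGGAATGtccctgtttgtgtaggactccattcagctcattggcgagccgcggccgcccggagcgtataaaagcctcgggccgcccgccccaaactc

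The CCN2 window held 3 TEAD motifs, which begin 169, 104 and 95 bases before the start site, the last pair being 3 bases apart. ANKRD1 had 2, beginning 220 and 128 bases before the start, and an AP-1 motif at 195 bases. THBS1 had 1, at 46 bases. Over windows of 300 bases (250 before and 50 after the start), both strands, CATTCC occurred in 10 of the 26 member genes that the table holds, against 16.7% of all 27305 genes in it. The other 7 were NUAK2 with 2 matches, and AMOTL2, AJUBA, FOXF2, LATS2, PTPN14 and YAP1 with 1 each. TGANTCA occurred in 3 of the 26 (ANKRD1, F3 and LATS1), against 9.37% of all genes, and the CArG box of serum response factor in 1 (RND3), against 1.60%. These are matches of letters, not measured binding, and no TEAD match shared bases with an AP-1 match.

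All 34 genes passed the filter on low counts and were tested with edgeR's quasi-likelihood test, with Benjamini-Hochberg adjustment over 23693 genes and a threshold of 0.05. In withdrawn against persister cells, 12 of the 34 were higher and 16 lower, and 6 did not pass. Of all genes tested, 52.5% were called there, 24.5% higher and 28.0% lower. In persister against parental cells, 11 were higher, 10 lower and 13 did not pass, beside 31.2% of all genes called, 16.1% higher and 15.1% lower. With those 6 libraries fitted alone, 5 were higher and 4 lower, beside 5.94% and 5.33% of all genes. In withdrawn against parental cells edgeR called none of the 34 in either direction, beside 0.431% of all genes (0.312% higher and 0.118% lower), and 0 passed at an unadjusted p under 0.05 or were called by DESeq2 or limma-voom. Those fits all take the spread partly from the persister libraries. With withdrawn and parental libraries fitted alone, some of the 34 were called in each direction, as listed further on. The members' median log2 fold change was -0.25 in withdrawn against persister cells and 0.28 in persister against parental cells, where the medians of all genes were -0.03 and 0.09.

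For 20 of the 34 genes the persister call was followed by an opposite call after withdrawal and by none against parental cells, a sequence that 26.9% of all genes followed. The 10 that were lower in persister cells and higher again after withdrawal were STK3, STK4, SAV1, LATS1, AMOT, AMOTL1, YAP1, WWTR1, TEAD1 and DOCK5. The 10 with the opposite sequence were AMOTL2, AJUBA, NUAK1, NUAK2, CCN1, CCN2, FJX1, FOXF2, THBS1 and RND3. Both comparisons use the same persister libraries, so the calls in them are not independent. An absent call against the single parental library does not show a return to its level. With withdrawn and parental libraries fitted alone, STK4, LATS1, DOCK5, NUAK1 and FOXF2 were called different from parental cells. Another 8 genes were called after withdrawal only (NF2, VGLL4, ANKRD1, F3, CRIM1 and MYOF lower, TEAD2 and RBMS3 higher), beside 25.1% of all genes. TEAD3 was called in persister cells only, beside 3.92% of all genes. LATS2, PTPN14, TEAD4, ARHGEF17 and ASAP1 were called in none by edgeR over all 11 libraries, beside 43.5% of all genes.

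**Figure D1:**
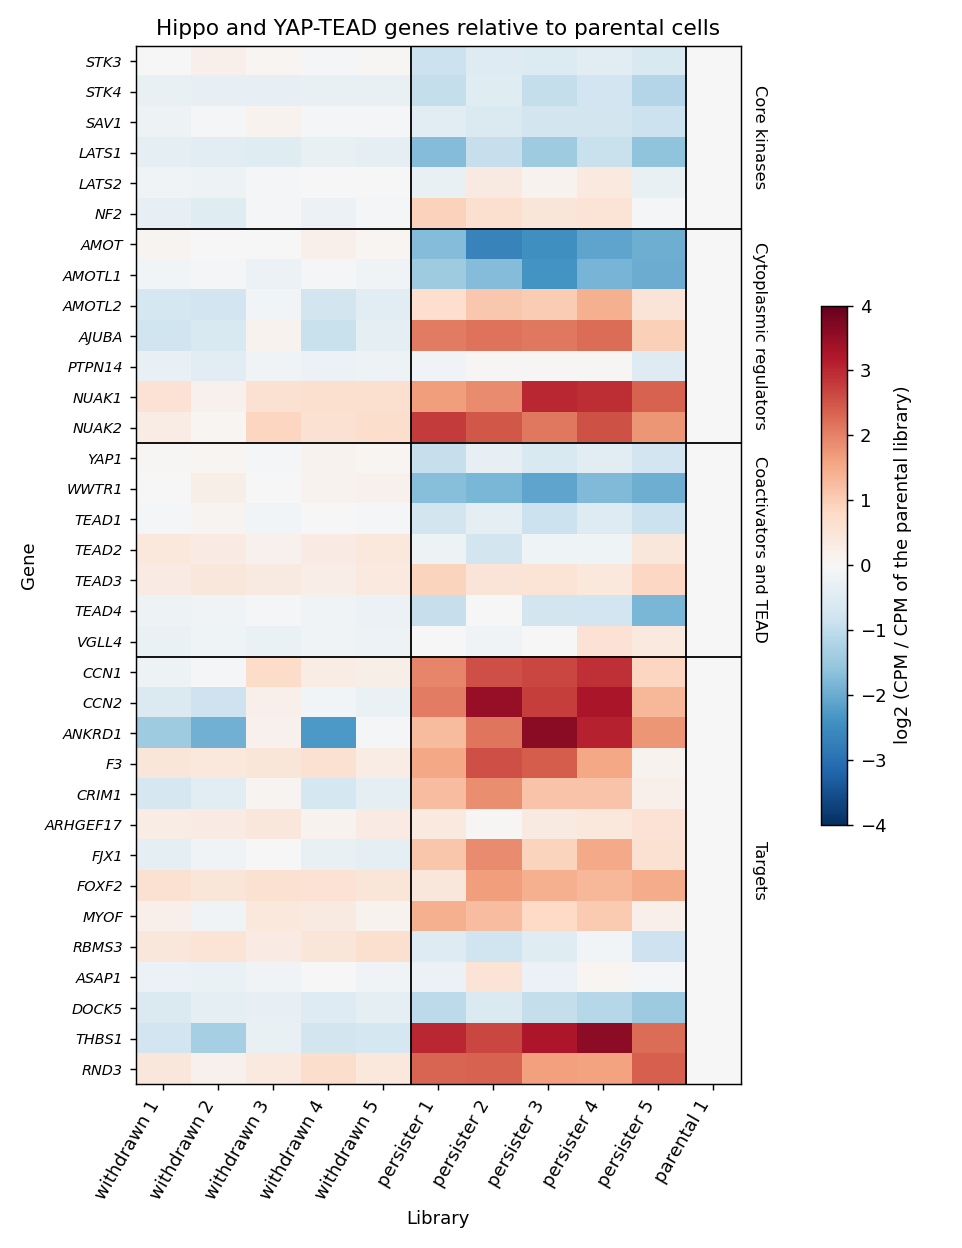
Level of each of the 34 genes (rows, by role) in each library (columns), as log2 of its CPM over that of the parental library. Persister columns carry the strong colours in both directions, for example blue for WWTR1 (296.0 to 391 CPM, against 1270 CPM in the parental library) and red for THBS1 (2421 to 6108 CPM, against 515 CPM), while withdrawn columns are pale except for ANKRD1 and, in library 2, THBS1.

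Counts are given by role, and differences between the roles were not tested. Reported targets that act as regulators, such as AMOTL2, LATS2 and NUAK2, are counted with the regulators or kinases and not among the 14 targets. In persister against parental cells, 4 of the 6 core kinases and scaffolds were lower and none higher by edgeR (0 higher also at an unadjusted p under 0.05 and by DESeq2 and limma-voom; median log2 fold change -0.62), and 3 of the 7 coactivator, TEAD and VGLL4 genes were lower and 1 higher (median -0.59). Of the 7 angiomotins and other cytoplasmic regulators, 4 were higher and 2 lower (median 0.97), and of the 14 targets 6 were higher and 1 lower (median 1.30). Of all genes, edgeR called 16.1% higher and 15.1% lower. The target count depended on the tool. DESeq2 called 10 of the 14 targets higher and 1 lower, beside 4654 and 3843 of all 23693 genes. For limma-voom the counts were 6 and 1, beside 3059 and 3915. At an unadjusted edgeR p under 0.05, 10 targets were higher and 2 lower. After withdrawal the counts were 4 higher and 1 lower of the kinases (median 0.57), 4 higher and 1 lower of the coactivator and TEAD genes (median 0.60), 2 higher and 4 lower of the cytoplasmic regulators (median -1.50), and 2 higher and 10 lower of the targets (median -1.46), beside 24.5% of all genes higher and 28.0% lower. The libraries are of bulk RNA, in which fewer cells of a type and less RNA per cell cannot be told apart.

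Among the coactivators, WWTR1 encodes TAZ, the paralog of YAP1. WWTR1 had 1293, 1493, 1259, 1396 and 1427 CPM in withdrawn libraries 1 to 5, 391, 361, 296, 370.1 and 330.3 CPM in persister libraries 1 to 5, and 1270 CPM in the parental library. Every persister value lay below every other one. The log2 fold change was 1.97 ± 0.0982 (SE) in withdrawn against persister cells (edgeR adjusted p = 7.42e-08) and -1.86 ± 0.145 in persister against parental cells (edgeR adjusted p = 7.41e-06), with adjusted p at or under 0.00290 in all alternatives tried.

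YAP1 had 187, 189, 176, 198 and 191 CPM in withdrawn libraries 1 to 5, 94.7, 146, 118, 136 and 106 CPM in persister libraries 1 to 5, and 181 CPM in the parental library. Withdrawn and persister values did not overlap. The same was true of 23 of the 34 members, 11 higher and 12 lower in withdrawn cells, and of 40.6% of all genes, 20.3% in each direction. YAP1 rose after withdrawal by a log2 fold change of 0.65 ± 0.114 (edgeR adjusted p = 5.36e-04) and was lower in persister than in parental cells by -0.59 ± 0.187 (edgeR adjusted p = 0.0321). The second call did not pass without persister library 3 (edgeR adjusted p = 0.0515), withdrawn library 1 (0.0510) or withdrawn library 5 (0.0505), nor when persister and parental libraries were fitted alone (0.172).

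WWTR1 had the larger fold change of the pair. In RPKM (CPM per kilobase of exon), YAP1 stood at 0.184 ± 0.00966 of WWTR1 in withdrawn cells and 0.463 ± 0.0894 in persister cells (SD, n = 5 each), and at 0.190 in the parental library. All 5 persister ratios lay above all others. An exact two-sided permutation test of withdrawn against persister libraries gave p = 0.00794, the smallest that 5 against 5 allows, and 0.0136 after Benjamini-Hochberg adjustment over the 12 ratios, shares and sums compared; the test ignores the shared culture numbers.

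TEAD factors bind DNA for both coactivators. TEAD1 had 174, 194, 169, 178 and 176 CPM in withdrawn libraries 1 to 5, 109, 139, 100.3, 127 and 101 CPM in persister libraries 1 to 5, and 181 CPM in the parental library. Its persister values lay below all others. TEAD1 was higher after withdrawal (log2 fold change 0.63 ± 0.101, edgeR adjusted p = 2.89e-04), and persister cells had less of it than parental cells (-0.65 ± 0.167, edgeR adjusted p = 0.0119), a call that did not pass with those libraries fitted alone (0.106).

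TEAD2 had 30.4, 28.4, 25.6, 28.6 and 30.6 CPM in withdrawn libraries 1 to 5, 19.6, 13.7, 20.2, 20.1 and 31.3 CPM in persister libraries 1 to 5, and 22.6 CPM in the parental library. Persister library 5 was above every withdrawn library and the other 4 were below all of them. The rise after withdrawal was at the threshold (log2 fold change 0.45 ± 0.175, edgeR adjusted p = 0.0470), and the adjusted p lay between 0.0525 and 0.0896 when any 1 library other than persister library 5 was left out. About 10.7% of its exon bases are shared with CD37 on the opposite strand.

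TEAD3 had 9.93, 11.0, 10.2, 9.66 and 10.6 CPM in withdrawn libraries 1 to 5, 14.9, 11.4, 11.6, 10.6 and 14.3 CPM in persister libraries 1 to 5, and 7.99 CPM in the parental library. It was the TEAD gene called higher in persister cells (log2 fold change 0.65 ± 0.212, edgeR adjusted p = 0.0357). That call did not pass without withdrawn library 1, 3, 4 or 5 (edgeR adjusted p = 0.0518, 0.0511, 0.0509 and 0.0515). Nor did it with persister and parental libraries fitted alone (0.177). After withdrawal its log2 fold change was -0.29 ± 0.116, which did not pass (edgeR adjusted p = 0.0541) but did without persister library 2 (0.0365) or persister library 4 (0.0233). With all libraries kept, DESeq2 called this fall (adjusted p = 0.0295) and limma-voom did not.

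TEAD4 had 22.2, 23.3, 24.2, 22.9 and 21.8 CPM in withdrawn libraries 1 to 5, 13.3, 25.2, 15.2, 15.0 and 7.16 CPM in persister libraries 1 to 5, and 25.5 CPM in the parental library. The persister libraries ranged over 3.52 times, with library 2 above all withdrawn libraries. Neither comparison passed (log2 fold change 0.60 ± 0.247 in withdrawn against persister cells, edgeR adjusted p = 0.0628; -0.75 ± 0.404 in persister against parental cells, 0.176). Without persister library 2 both did (edgeR adjusted p = 0.00300 and 0.0199), and with the culture number as a replicate block the change after withdrawal was 0.69 (edgeR adjusted p = 0.0316). With all libraries kept, the change after withdrawal also passed by DESeq2 (adjusted p = 0.048) and limma-voom (adjusted p = 0.0236).

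Summed over TEAD1 to TEAD4, the level was 40.4 ± 1.16 RPKM in withdrawn cells and 29.0 ± 2.28 RPKM in persister cells, beside 39.1 RPKM in the parental library (exact two-sided permutation p = 0.00794, adjusted over the 12 quantities 0.0136). The share of TEAD3 in this sum was 8.34 ± 0.316% in withdrawn and 14.3 ± 2.73% in persister cells, beside 6.71% in the parental library (exact permutation p = 0.00794, adjusted 0.0136). TEAD1 took 42.9 ± 1.07% and 38.4 ± 3.17%, beside 45.1% (exact permutation p = 0.0238, adjusted 0.0357). The shares of TEAD2 and TEAD4 did not differ past the threshold (exact permutation p = 0.770 and 0.587). TEAD1 held the largest share of the 4 in 10 of the 11 libraries, the exception being persister library 5, where TEAD2 took 37.4% and TEAD1 34.8%.

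VGLL4 encodes a cofactor that competes with YAP1 and TAZ for TEAD factors. It averaged 47.9 ± 1.75 CPM in withdrawn and 63.3 ± 13.8 CPM in persister cells (SD, n = 5 each), beside 55.4 CPM in the parental library. It fell after withdrawal (log2 fold change -0.40 ± 0.129, edgeR adjusted p = 0.0204). Its groups did not overlap but nearly touched, at 50.08 CPM in the highest withdrawn and 50.19 CPM in the lowest persister library. VGLL4 shares 22.1% of its exon bases with ATG7 on the opposite strand, so its counts are uncertain to the extent that strand was not used in counting. Of the other VGLL cofactors, VGLL3 had 0.771, 1.09, 1.63, 0.556 and 1.16 CPM in withdrawn libraries 1 to 5, 2.29, 17.3, 5.57, 43.6 and 8.45 CPM in persister libraries 1 to 5 and 1.77 CPM in the parental library. Its level fell after withdrawal (log2 fold change -3.89 ± 0.735, edgeR adjusted p = 0.00113), and its persister libraries spanned a wide range.

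**Figure D2:**
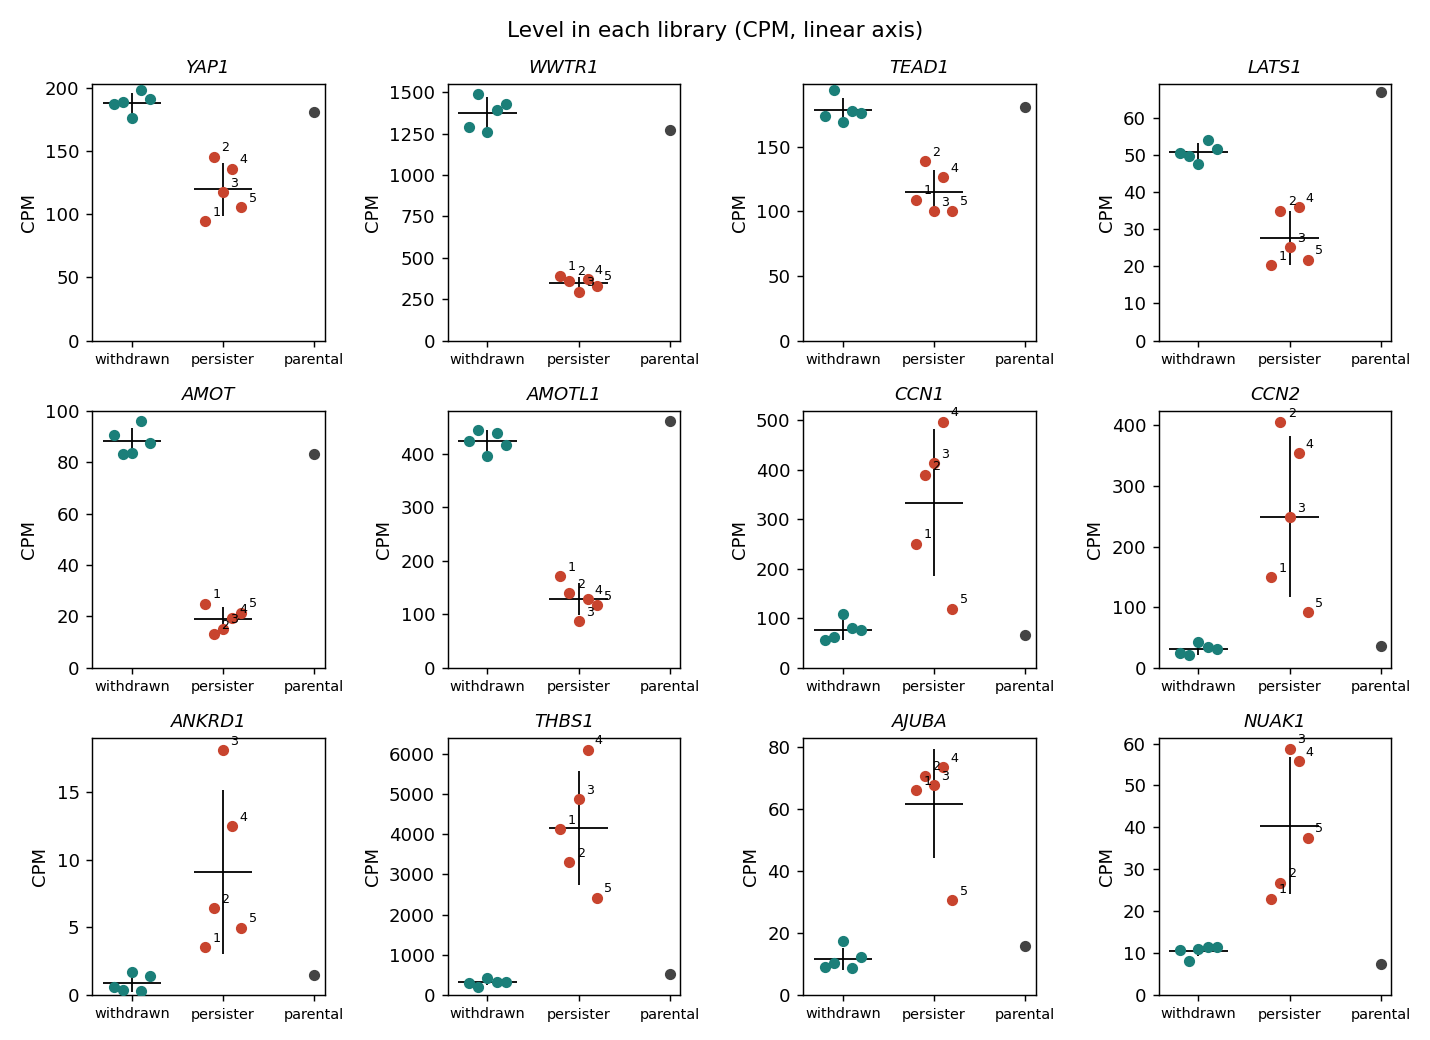
CPM of 12 of the genes in each library (points, on linear axes from 0), with the mean and SD (n = 5) of withdrawn and persister cells as bars and persister points numbered by culture. Persister points lie below the withdrawn points for YAP1, WWTR1, TEAD1, LATS1, AMOT and AMOTL1, and above them for CCN1, CCN2, ANKRD1, THBS1, AJUBA and NUAK1.

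Of the core kinases, LATS1 phosphorylates YAP1 and TAZ directly. LATS1 had 50.6, 49.9, 47.7, 54.2 and 51.5 CPM in withdrawn libraries 1 to 5, 20.2, 35.0, 25.2, 35.9 and 21.8 CPM in persister libraries 1 to 5, and 66.9 CPM in the parental library. No withdrawn library reached the parental value and no persister library reached the withdrawn values. LATS1 rose after withdrawal (log2 fold change 0.88 ± 0.157, edgeR adjusted p = 6.24e-04) and was lower in persister than in parental cells (-1.28 ± 0.246, edgeR adjusted p = 0.00271).

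Its paralog LATS2 did not pass in either comparison, with 33.9 ± 2.17 CPM in withdrawn cells, 38.0 ± 8.85 CPM in persister cells (SD, n = 5 each) and 35.7 CPM in the parental library. The log2 fold change was -0.16 ± 0.145 after withdrawal (edgeR adjusted p = 0.368). Leaving out persister libraries 1 and 5 together made it -0.38 (edgeR adjusted p = 0.00286). The ratio of LATS2 to LATS1 in RPKM was 1.04 ± 0.0731 in withdrawn and 2.15 ± 0.159 in persister cells, beside 0.827 in the parental library (exact two-sided permutation p = 0.00794, adjusted over the 12 quantities 0.0136). Ratios lay between 2.03 and 2.40 in all persister libraries, 1 and 5 included.

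STK3, STK4 and SAV1, which form the complex that activates the LATS kinases, had smaller fold changes than LATS1, a difference that was not tested. STK3 averaged 42.0 ± 2.89, 26.8 ± 2.92 and 40.2 CPM in withdrawn, persister (SD, n = 5 each) and parental cells. STK4 averaged 126 ± 1.62 and 87.5 ± 16.4 CPM in withdrawn and persister cells, with 157 CPM in the parental library. SAV1 averaged 43.6 ± 3.67 and 28.6 ± 3.43 CPM, with 45.0 CPM in the parental library. All were higher after withdrawal, with log2 fold changes of 0.65, 0.53 and 0.61 (edgeR adjusted p = 1.26e-04, 0.00224 and 2.97e-04), and none of their withdrawn values overlapped a persister value. Against parental cells the persister log2 fold changes were -0.59, -0.84 and -0.66 (edgeR adjusted p = 0.0134, 0.00572 and 0.01000), calls that did not pass with persister and parental libraries fitted alone (0.118, 0.0784 and 0.0865). The STK3 to STK4 ratio did not differ past the threshold between withdrawn and persister cells (exact permutation p = 0.476).

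NF2 encodes merlin, which brings the LATS kinases to the membrane, and it ran the other way. It had 77.2, 69.3, 92.5, 82.7 and 94.3 CPM in withdrawn libraries 1 to 5, 184, 150.4, 136, 141 and 90.6 CPM in persister libraries 1 to 5, and 96.6 CPM in the parental library. Persister library 5 lay within the withdrawn range and the other 4 above it. NF2 fell after withdrawal (log2 fold change -0.76 ± 0.162, edgeR adjusted p = 0.00212). In persister against parental cells its log2 fold change of 0.54 ± 0.291 did not pass (edgeR adjusted p = 0.175), but it was 0.67 without persister library 5 (0.0251).

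Angiomotins are scaffold proteins that hold YAP1 and TAZ at junctions and on actin. AMOT had 90.5, 83.1, 83.7, 95.9 and 87.5 CPM in withdrawn libraries 1 to 5, 25.0, 13.1, 15.2, 19.3 and 21.4 CPM in persister libraries 1 to 5, and 83.1 CPM in the parental library. AMOTL1 had 424, 444, 395, 439 and 416 CPM in withdrawn libraries 1 to 5, 170.4, 139, 87.3, 128 and 117 CPM in persister libraries 1 to 5, and 461 CPM in the parental library. For both, every persister library lay far below all others. Log2 fold changes after withdrawal were 2.23 ± 0.158 for AMOT and 1.72 ± 0.149 for AMOTL1 (edgeR adjusted p = 7.49e-07 and 3.20e-06), and in persister against parental cells -2.14 ± 0.228 and -1.84 ± 0.221 (6.41e-05 and 1.50e-04).

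AMOTL2, the member of this family that is itself a reported YAP-TEAD target, moved in the opposite direction. It had 38.3, 36.6, 57.6, 37.8 and 46.3 CPM in withdrawn libraries 1 to 5, 98.4, 133, 125, 166 and 88.4 CPM in persister libraries 1 to 5, and 62.4 CPM in the parental library. All persister values were above all others. It fell after withdrawal (log2 fold change -1.50 ± 0.184, edgeR adjusted p = 4.33e-05). Its call in persister against parental cells was at the threshold (0.97 ± 0.336, edgeR adjusted p = 0.0466) and did not pass without persister library 2, 3 or 4 (0.0600, 0.0664 and 0.0525) or withdrawn library 1, 2, 4 or 5 (0.0630, 0.0589, 0.0583 and 0.0659). With persister and parental libraries fitted alone it did not pass either (0.122).

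The make-up of the family shifted with these changes. AMOTL2 took 12.1 ± 2.62% of the summed RPKM of AMOT, AMOTL1 and AMOTL2 in withdrawn cells and 57.4 ± 9.10% in persister cells, beside 15.8% in the parental library. AMOTL1 took 70.5 ± 2.46% and 36.3 ± 7.74%, beside 69.5%. AMOTL2 was the largest of the 3 in 4 of 5 persister libraries and AMOTL1 in all others, with library 1 close to even (45.2% AMOTL2 and 46.7% AMOTL1). Both shares differed between withdrawn and persister libraries (exact two-sided permutation p = 0.00794, adjusted over the 12 quantities 0.0136). For the AMOTL2 share this p adds nothing to the calls of the single genes. AMOTL2 was higher, and AMOT and AMOTL1 lower, in every persister library, so the share had to separate.

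**Figure D3:**
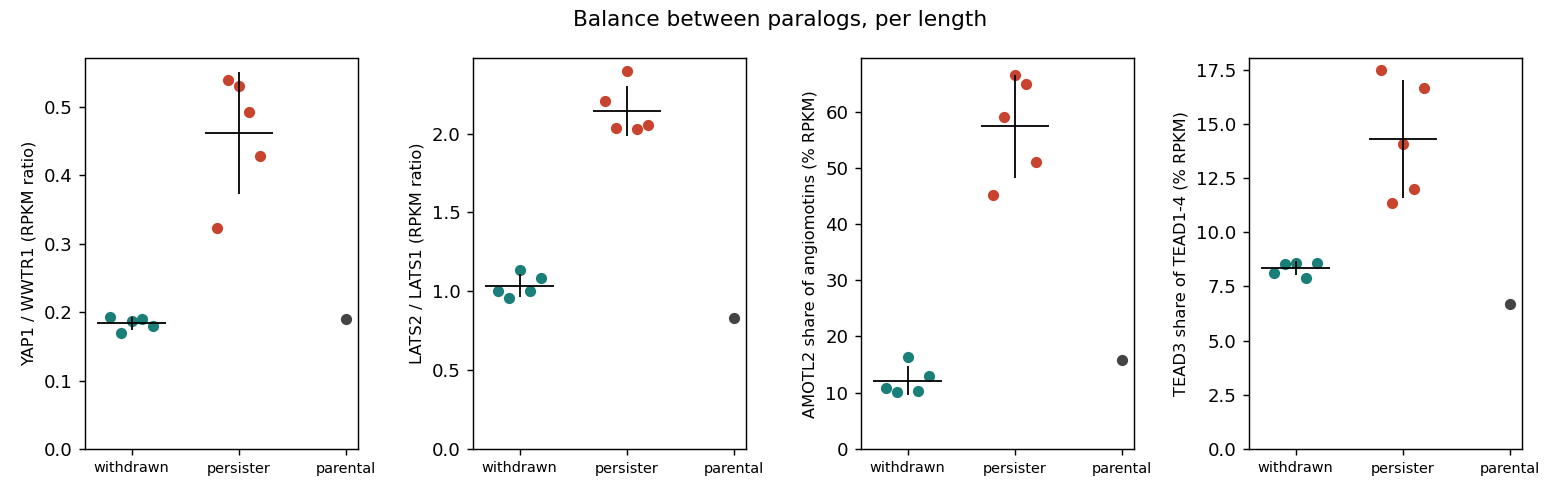
Ratios or shares of paralogs computed from RPKM in each library (points), with the mean and SD (n = 5) of withdrawn and persister cells as bars, on axes from 0. In all 4 panels every persister point lies above every withdrawn point and above the parental point, as for LATS2 over LATS1 (1.04 ± 0.0731 in withdrawn and 2.15 ± 0.159 in persister cells).

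AJUBA encodes a LIM protein that binds and inhibits LATS kinases. It had 9.12, 10.4, 17.5, 8.55 and 12.1 CPM in withdrawn libraries 1 to 5, 66.0, 70.7, 67.7, 73.5 and 30.5 CPM in persister libraries 1 to 5, and 15.7 CPM in the parental library. Persister library 5 was well under the other 4, which lay close together, but still above all withdrawn libraries. AJUBA fell after withdrawal (log2 fold change -2.42 ± 0.266, edgeR adjusted p = 2.41e-05) and was higher in persister than in parental cells (1.97 ± 0.509, edgeR adjusted p = 0.0137).

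NUAK1 and NUAK2 encode AMPK-related kinases, and NUAK2 is known as a YAP target that feeds back on the pathway. NUAK1 had 10.7, 8.14, 11.0, 11.3 and 11.4 CPM in withdrawn libraries 1 to 5, 23.0, 26.7, 58.8, 55.7 and 37.5 CPM in persister libraries 1 to 5, and 7.25 CPM in the parental library. NUAK2 had 3.25, 2.79, 4.75, 4.03 and 4.29 CPM in withdrawn libraries 1 to 5, 18.1, 14.8, 11.4, 15.2 and 8.81 CPM in persister libraries 1 to 5, and 2.62 CPM in the parental library. For both genes all persister libraries were above all withdrawn libraries, which in turn were all above the parental library. Log2 fold changes after withdrawal were -1.94 ± 0.256 and -1.83 ± 0.212 (edgeR adjusted p = 8.31e-05 and 2.60e-05), and in persister against parental cells 2.48 ± 0.519 and 2.38 ± 0.429 (0.00470 and 0.00186). Their order among persister libraries differed, since NUAK1 was highest in libraries 3 and 4 and NUAK2 in library 1, and the NUAK1 to NUAK2 ratio did not differ past the threshold between withdrawn and persister cells (exact permutation p = 0.603).

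PTPN14, a phosphatase that binds YAP1, did not pass in either comparison. It averaged 214 ± 15.9 CPM in withdrawn and 241 ± 36.5 CPM in persister cells (SD, n = 5 each), with 255 CPM in the parental library. The log2 fold change after withdrawal was -0.17 ± 0.112 (edgeR adjusted p = 0.233), and without persister library 5 it was -0.26 (0.0164).

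Among the targets, CCN1 and CCN2 encode secreted matricellular proteins and, with the nuclear ankyrin-repeat protein ANKRD1, are the usual readouts of YAP-TEAD activity. CCN1 had 56.7, 61.4, 109, 80.8 and 76.5 CPM in withdrawn libraries 1 to 5, 251, 389, 413, 497 and 119 CPM in persister libraries 1 to 5, and 65.5 CPM in the parental library. CCN2 had 24.3, 20.4, 41.6, 34.1 and 30.1 CPM in withdrawn libraries 1 to 5, 149.6, 405, 248, 354 and 91.2 CPM in persister libraries 1 to 5, and 36.5 CPM in the parental library. Persister libraries 5 and 1 were the lowest of their group for both genes, yet above every withdrawn library.

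CCN1 fell after withdrawal by a log2 fold change of -2.12 ± 0.343 and CCN2 by -3.05 ± 0.394 (edgeR adjusted p = 4.07e-04 and 8.38e-05). In persister against parental cells they were higher, by 2.35 ± 0.686 and 2.77 ± 0.782 (edgeR adjusted p = 0.0244 and 0.0210). These last calls did not pass with no filter on low counts (0.0818 and 0.0750) or with persister and parental libraries fitted alone (0.0937 and 0.0883). Per length, the CCN1 to CCN2 ratio was 2.46 ± 0.258 in withdrawn and 1.34 ± 0.281 in persister cells, beside 1.71 in the parental library (exact two-sided permutation p = 0.00794, adjusted over the 12 quantities 0.0136).

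ANKRD1, at low counts in withdrawn and parental libraries, had 0.548, 0.385, 1.66, 0.299 and 1.42 CPM in withdrawn libraries 1 to 5, 3.53, 6.42, 18.1, 12.5 and 4.99 CPM in persister libraries 1 to 5, and 1.47 CPM in the parental library. Its lowest count in a library was 21. The groups did not overlap, although the highest value was 5.55 times the lowest among withdrawn and 5.13 times among persister libraries. ANKRD1 fell after withdrawal (log2 fold change -3.39 ± 0.607, edgeR adjusted p = 7.93e-04). Against parental cells all 5 persister libraries were higher, but the log2 fold change of 2.63 ± 1.17 did not pass (edgeR adjusted p = 0.109; DESeq2 adjusted p = 0.0138).

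THBS1, which encodes the matrix glycoprotein thrombospondin-1, had the highest level per length of the 14 targets in every persister library (264 to 667 RPKM). In CPM it had 301, 206, 424, 309.6 and 314 CPM in withdrawn libraries 1 to 5, 4126, 3308, 4879, 6108 and 2421 CPM in persister libraries 1 to 5, and 515 CPM in the parental library. Every withdrawn library was below the parental one and every persister library above it. The log2 fold change was -3.75 ± 0.271 after withdrawal (edgeR adjusted p = 1.08e-06) and 3.02 ± 0.531 in persister against parental cells (edgeR adjusted p = 0.00174).

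THBS1 also supplied most of the summed counts of the 14 targets in persister cells. That sum was 1108 to 1611 CPM in withdrawn, 3810 to 8523 CPM in persister and 1523 CPM in parental libraries, of which THBS1 made up 18.6% to 26.3%, 53.6% to 71.7% and 33.8%. Without THBS1 the ranges were 901 to 1187 CPM, 1390 to 2859 CPM and 1008 CPM, and withdrawn and persister libraries still did not overlap. Persister library 5 was the lowest of its group both with and without THBS1.

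RND3, an atypical small GTPase that opposes actin contraction, had 96.5, 79.4, 91.8, 113 and 93.9 CPM in withdrawn libraries 1 to 5, 353, 361, 219, 213 and 364 CPM in persister libraries 1 to 5, and 69.9 CPM in the parental library. Here persister libraries 1, 2 and 5 were higher than 3 and 4, unlike CCN1 and CCN2. RND3 fell after withdrawal (log2 fold change -1.67 ± 0.176, edgeR adjusted p = 1.33e-05) and was higher in persister than in parental cells (2.11 ± 0.349, edgeR adjusted p = 0.00113).

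FJX1, a secreted kinase of the Fat-Dachsous branch, averaged 13.4 ± 1.46 CPM in withdrawn and 38.0 ± 13.6 CPM in persister cells (SD, n = 5 each), with 15.7 CPM in the parental library. FOXF2, a forkhead transcription factor, averaged 6.69 ± 0.328 and 11.4 ± 3.14 CPM, with 4.54 CPM in the parental library. Both fell after withdrawal (log2 fold changes -1.50 and -0.77, edgeR adjusted p = 1.28e-04 and 0.00534). Both were higher in persister than in parental cells (1.27 and 1.33, edgeR adjusted p = 0.0312 and 0.0174), which did not pass with those libraries fitted alone (0.132 and 0.115).

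F3 (tissue factor, which starts blood clotting), CRIM1 (a membrane protein that binds BMPs) and MYOF (myoferlin, a membrane repair protein) shared a pattern. F3 averaged 4.31 ± 0.326 and 11.5 ± 6.24 CPM in withdrawn and persister cells, with 3.14 CPM in the parental library. CRIM1 averaged 99.5 ± 24.4 and 299.7 ± 113 CPM, with 130.4 CPM in the parental library. MYOF averaged 403 ± 59.4 and 696 ± 206 CPM, with 348 CPM in the parental library. They fell after withdrawal (log2 fold changes -1.41, -1.59 and -0.79, edgeR adjusted p = 0.00638, 4.37e-04 and 0.00615).

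In persister against parental cells F3, CRIM1 and MYOF did not pass (log2 fold changes 1.87, 1.20 and 1.00, edgeR adjusted p = 0.0648, 0.0835 and 0.0604). Persister library 5 was the lowest persister library for all of them, at 3.47, 152 and 399 CPM. Without it all 3 passed (edgeR adjusted p = 0.00334, 0.0150 and 0.00563). With library 5 kept, DESeq2 also called all 3 higher (adjusted p = 0.00975, 0.0314 and 0.0265), and limma-voom did not.

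RBMS3 and DOCK5 went against the other called targets. RBMS3, an RNA-binding protein, had 70.4, 74.3, 63.7, 70.8 and 79.7 CPM in withdrawn libraries 1 to 5, 35.7, 29.1, 36.1, 47.6 and 28.9 CPM in persister libraries 1 to 5, and 50.9 CPM in the parental library. Its withdrawn values were all above the parental value and its persister values all below it. It rose after withdrawal (log2 fold change 1.02 ± 0.133, edgeR adjusted p = 6.69e-05) and did not pass in persister against parental cells (-0.52 ± 0.220, edgeR adjusted p = 0.0922), where leaving out persister library 4 gave -0.65 (0.0137).

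DOCK5, an exchange factor for the GTPase Rac, had 95.8, 110.2, 114, 99.0 and 111 CPM in withdrawn libraries 1 to 5, 69.4, 95.7, 72.9, 64.7 and 51.5 CPM in persister libraries 1 to 5, and 142 CPM in the parental library. All withdrawn libraries lay between the persister libraries and the parental one, though persister library 2 and withdrawn library 1 were close. DOCK5 rose after withdrawal (log2 fold change 0.58 ± 0.139, edgeR adjusted p = 0.00422) and was lower in persister than in parental cells (-1.01 ± 0.223, edgeR adjusted p = 0.00582), which did not pass with those libraries fitted alone (0.0669).

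ARHGEF17, a guanine nucleotide exchange factor, averaged 12.2 ± 0.926 and 12.6 ± 1.62 CPM in withdrawn and persister cells (SD, n = 5 each), with 9.76 CPM in the parental library. ASAP1, a GTPase-activating protein for Arf proteins, averaged 117 ± 8.71 and 135 ± 33.0 CPM, with 131 CPM in the parental library. Neither passed after withdrawal (log2 fold changes -0.05 and -0.21, edgeR adjusted p = 0.738 and 0.241) or in persister against parental cells (0.37 and 0.05, 0.180 and 0.897).

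**Figure D4:**
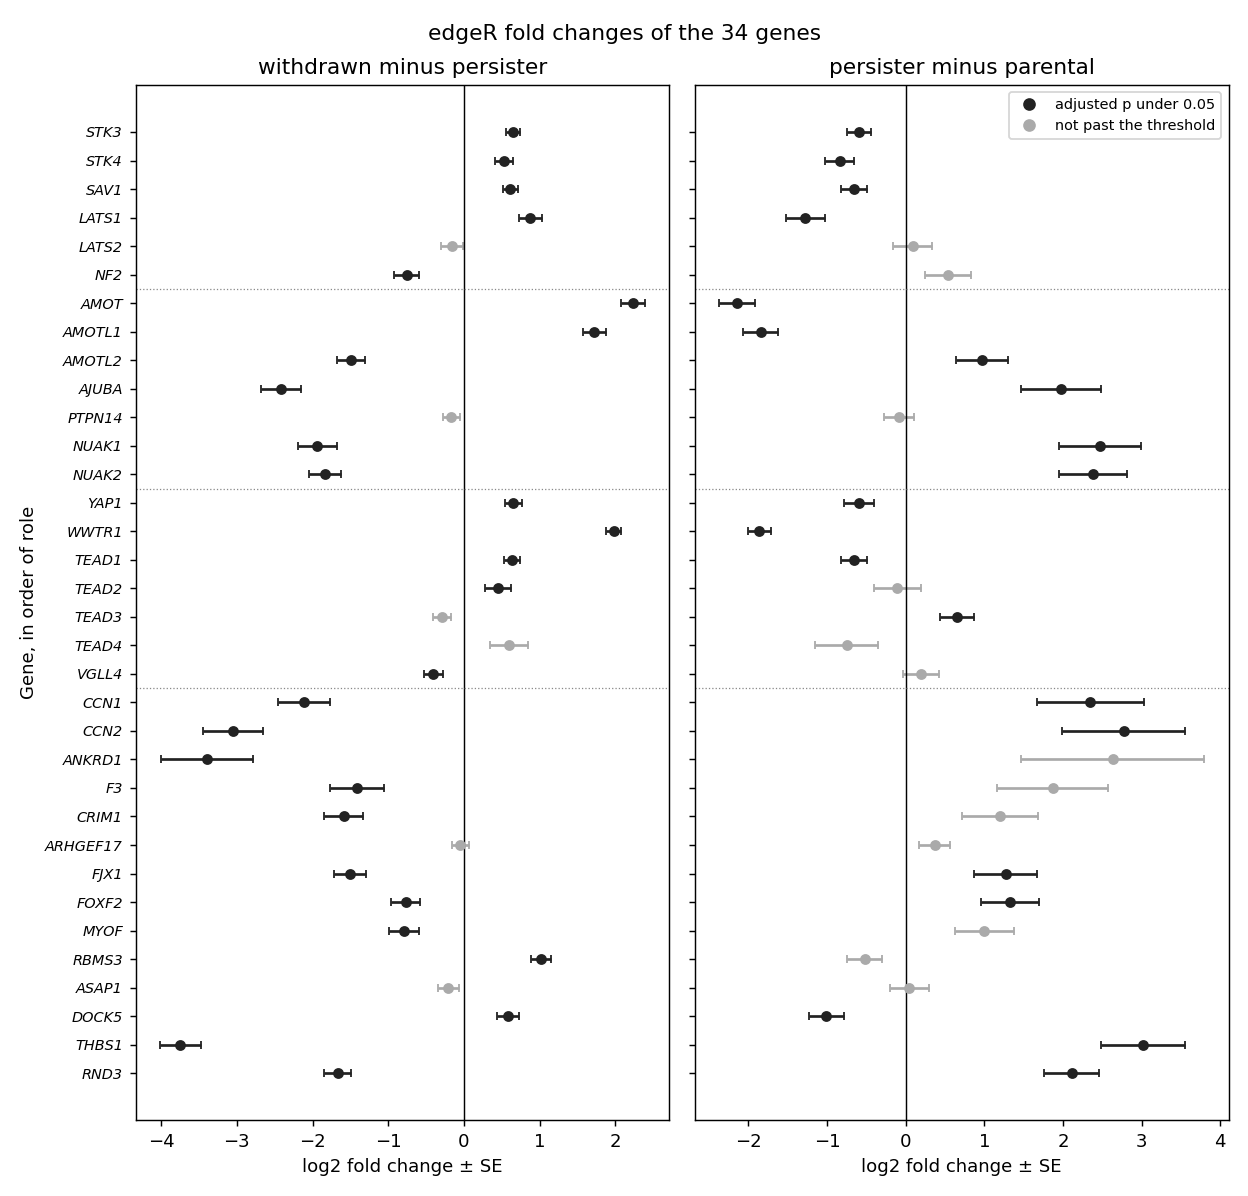
Log2 fold changes of the 34 genes with their SE from the edgeR fit, in withdrawn minus persister cells (left) and persister minus parental cells (right), with genes in order of role and black points past an adjusted p of 0.05. The 10 targets that fell after withdrawal lie between -3.75 (THBS1) and -0.77 (FOXF2), and the SE bars are wider in the right panel, where 1 library stands for parental cells.

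The persister cultures differed among themselves in these genes. The median coefficient of variation of the 34 genes was 7.54% across withdrawn and 25.2% across persister libraries, beside 12.3% and 29.5% for all genes. The wider spread among persister libraries was thus not particular to these genes. Persister library 5 was the lowest of its group for 17 of the 34 members (50.0%) and for 9 of the 14 targets (64.3%), where it was the lowest for 24.6% of all genes. Among withdrawn libraries, number 3 was the highest for 15 of the 34 (44.1%), beside 21.8% of all genes, and for 9 of the 14 targets.

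Persister library 5 also had the lowest proliferation sum (549.9 CPM) and the highest mitochondrial share (9.28%) of its group, and library 1 followed it in both. The part of these in the target levels was not tested. Without libraries 1 and 5, 12 of the 34 genes were higher and 18 lower in withdrawn against persister cells, beside 26.1% and 28.7% of all genes. The counts in persister against parental cells were then 15 higher and 10 lower, beside 20.1% and 18.8% of all genes. Fibroblast markers, a list of 10, summed to 31.1 to 38.4 CPM in withdrawn, 58.4 to 346 CPM in persister and 22.0 CPM in parental libraries. LUM averaged 4.08 CPM in withdrawn and 172 CPM in persister cells, with 2.16 CPM in the parental library, and was most of the persister sums on average. PDGFRB took the most in the others, with 19.5 CPM in withdrawn and 16.6 CPM in persister cells and 10.9 CPM in the parental library, while COL1A2 stood at 0.0763, 1.32 and 0.0459 CPM and DPT at 0 in withdrawn and parental libraries. Of the 9 tested, 1 rose and 6 fell after withdrawal. In persister cells 5 were above and 1 below the parental level, and the part of this list in the results was not tested.

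In withdrawn against parental cells the largest log2 differences among the members were -0.76 for ANKRD1, -0.73 for THBS1 and 0.56 for FOXF2 (edgeR adjusted p = 0.756, 0.418 and 0.479). An adjusted p above the threshold with 1 parental library does not show that levels were equal. With the 6 withdrawn and parental libraries fitted alone, 4 of the 34 were called higher in withdrawn cells (NUAK1, TEAD2, FOXF2 and RBMS3) and 5 lower (STK4, LATS1, PTPN14, VGLL4 and DOCK5), beside 16.1% and 14.4% of all genes in that fit. FOXF2 had a log2 fold change of 0.54 (edgeR adjusted p = 0.0141).

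Of 32 other genes upstream of the LATS kinases, 11 rose and 7 fell after withdrawal, and in persister cells 4 were above and 7 below the parental level (median log2 fold changes -0.01 and -0.09). The shares of all genes were 24.5% and 28.0% after withdrawal and 16.1% and 15.1% in persister cells. The Dachsous-Fat pair moved in opposite directions. DCHS1, a protocadherin ligand, had 6.31, 7.13, 6.50, 7.38 and 8.22 CPM in withdrawn libraries 1 to 5, 0.384, 0.701, 0.137, 0.413 and 0.341 CPM in persister libraries 1 to 5 and 5.06 CPM in the parental library. It rose after withdrawal (log2 fold change 4.17 ± 0.323, edgeR adjusted p = 1.44e-06) and was lower in persister than in parental cells (-3.69 ± 0.413, edgeR adjusted p = 9.44e-05).

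FAT4, its receptor, had 10.1, 9.04, 12.7, 12.1 and 11.0 CPM in withdrawn libraries 1 to 5, 33.8, 171, 119, 167 and 109 CPM in persister libraries 1 to 5 and 12.1 CPM in the parental library. It fell after withdrawal (log2 fold change -3.45 ± 0.372, edgeR adjusted p = 2.37e-05) and was higher in persister than in parental cells (3.31 ± 0.754, edgeR adjusted p = 0.00772). MOB1B, a coactivator of LATS kinases, averaged 69.0 ± 6.18 and 24.1 ± 3.79 CPM in withdrawn and persister cells, with 68.7 CPM in the parental library, and rose after withdrawal (log2 fold change 1.52 ± 0.117, edgeR adjusted p = 1.46e-06). WWC1 (KIBRA, which acts with merlin) fell after withdrawal (-1.54 ± 0.368, edgeR adjusted p = 0.00447).

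Of 30 further genes reported as YAP-TEAD targets, 3 rose and 14 fell after withdrawal, and in persister cells 12 were above and 2 below the parental level (median log2 fold changes -0.43 and 0.64), beside the same shares of all genes (24.5% and 28.0%, then 16.1% and 15.1%). FSTL1, a secreted glycoprotein, averaged 14.0 ± 1.49 and 473 ± 94.9 CPM in withdrawn and persister cells, with 10.8 CPM in the parental library, and fell after withdrawal (log2 fold change -5.08 ± 0.167, edgeR adjusted p = 6.96e-09). DKK1, a secreted WNT inhibitor, fell by -4.17 ± 0.362 (edgeR adjusted p = 5.29e-06). TGFB2, a ligand of TGF-beta receptors, was higher in persister than in parental cells (4.86 ± 1.19, edgeR adjusted p = 0.0109).

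Some of these targets are also known to respond to the actin-regulated factors MRTF and SRF, and 17 genes of that pathway were read beside them. Of these, 16 fell and none rose after withdrawal by edgeR (0 rose at an unadjusted p under 0.05 or by DESeq2 or limma-voom), and in persister cells 10 were above and 1 below the parental level (median log2 fold changes -1.25 and 1.60), where 28.0% of all genes fell after withdrawal and 16.1% were above in persister cells. ACTA2, smooth muscle actin, fell after withdrawal (-2.62 ± 0.299, edgeR adjusted p = 3.16e-05), as did TPM1 and TPM2, which encode tropomyosins (-2.55 and -2.15, 6.94e-05 and 1.85e-06). MYL9, a myosin light chain, fell by -4.69 ± 0.827 (7.21e-04). The list summed to 6073 to 6845 CPM in withdrawn, 8792 to 18360 CPM in persister and 7086 CPM in parental libraries, again lowest of the persister group in library 5. The part of MRTF and SRF in the target levels was not tested.

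Of 14 genes that report MAPK pathway output, 10 rose and 2 fell after withdrawal, and in persister cells none was above and 9 were below the parental level by edgeR (0 above at an unadjusted p under 0.05 or by DESeq2 or limma-voom; median log2 fold changes 1.47 and -1.58), where 24.5% of all genes rose after withdrawal and 15.1% were below in persister cells. DUSP6, a phosphatase induced by ERK, averaged 186 ± 9.28 and 24.8 ± 4.78 CPM in withdrawn and persister cells, with 168 CPM in the parental library. The list's persister sums were 951 to 1881 CPM, in which library 5 (1065 CPM) was not the lowest. Of the 16 proliferation genes, 2 rose after withdrawal (MCM6 and MCM3, helicase subunits of DNA replication, log2 fold changes 0.91 and 0.56, edgeR adjusted p = 0.0290 and 0.0481), and edgeR called none in persister against parental cells (2 were lower at an unadjusted p under 0.05, and DESeq2 and limma-voom called 0).

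**Figure D5:**
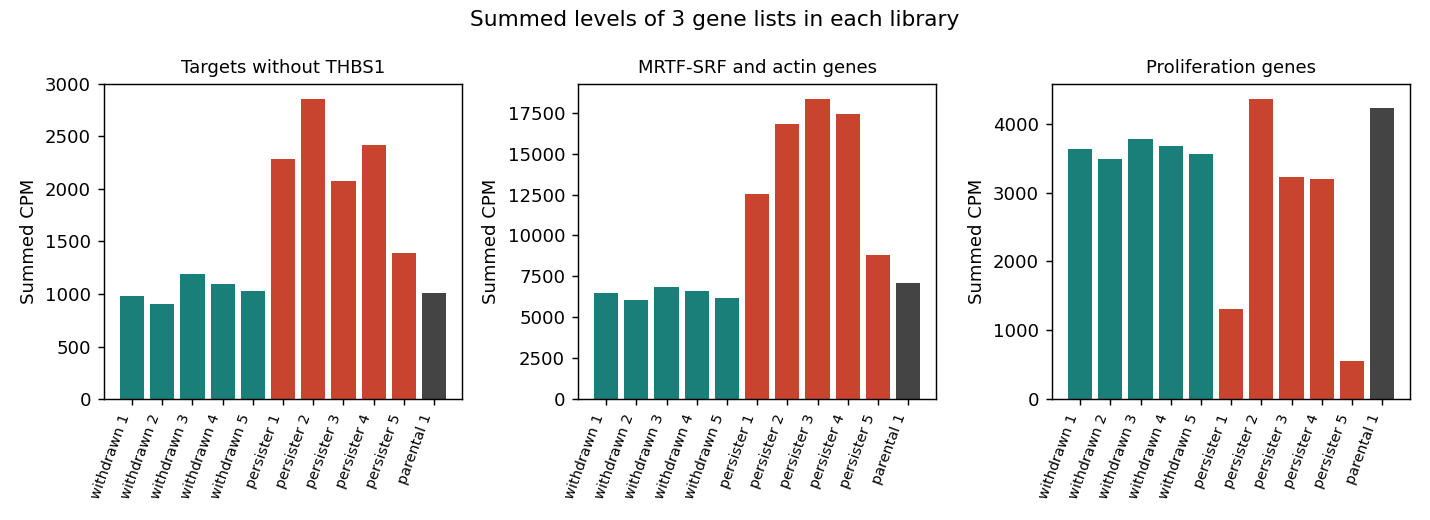
Summed CPM in each library (bars from 0) of the 13 targets without THBS1, of 17 MRTF-SRF and actin genes, and of 16 proliferation genes. The target and actin sums are highest in persister libraries 1 to 4 and lowest of their group in persister library 5 (1390 and 8792 CPM), whose proliferation sum is 549.9 CPM.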

How the data were processed

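The values were whole-number counts of reads per gene for 11 libraries, deposited by the authors as raw counts in 1 table. RNA was poly(A)-selected and made into stranded libraries, per the labels' protocols. The submitters' processing notes name bcl2fastq, HISAT2, HTSeq and hg38. For versions, annotation and the strand setting of the counting, nothing was given in the sources used here, and 14 of the 34 genes share exon bases with a gene on the opposite strand. Symbols and exon lengths came from GENCODE 29.

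Counts were filtered (edgeR filterByExpr, minimum count 10, minimum total 15), scaled by TMM and fitted with edgeR 4.0.16 (R 4.3.3, robust quasi-likelihood) over all 11 libraries and 3 groups, with 8 residual degrees of freedom. The fit was also run on simulated counts in which all groups had the same spread. That run cannot show how the fit behaves with the wider spread among persister libraries. CPM uses these scaling factors, RPKM divides it by exon length, and fold changes are log2. The SE of an edgeR fold change was worked back from the test, as its absolute value over the square root of the F statistic. Intervals were not drawn from counts, since replicate spread exceeds counting error at 56513920 to 82984566 counts a library. Ratios were compared by exact permutation (SciPy 1.17.1). No libraries agreed within sampling noise.

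Alternatives were DESeq2 1.42.0, limma-voom (limma 3.58.1) with and without group quality weights, other scalings and filters, fits of 2 groups, each library left out, persister libraries 1 and 5 left out, and the culture number as a replicate block. The block follows the withdrawn samples' titles, which name a persister culture. Deviations of same-numbered libraries had correlations of 0.0484 to 0.0909 across genes, each the highest for its own number.

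The members and lists were chosen with earlier results of these data known. Values per library are given for the largest changes (up to 5 per direction and comparison, mean log2 CPM of at least 1), for YAP1, WWTR1 and the TEAD genes, and for CCN1, CCN2 and ANKRD1. From each other list, up to 3 called genes per comparison were named by fold change; a gene that this rule names among the further targets is not reported here. Per-library values of NF2, AMOTL2, RND3, VGLL3, DCHS1 and FAT4 were added after their values were seen.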

Additional observations from a re-analysis of the deposited data

Results flagged for a closer look

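In 68 groups of 5 libraries (34 genes in withdrawn and in persister cells), 2 held a library that stood far from the other 4 by Dixon's test at the 95% level, where chance alone gives about 1 in 20. AJUBA had 30.5 CPM in persister library 5, against 66.0 to 73.5 CPM in the other persister libraries. NUAK1 had 8.14 CPM in withdrawn library 2, against 10.7 to 11.4 CPM in the other withdrawn libraries.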

How the results depend on the processing

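Of 1972 fold changes of members under 20 alternative settings, 1888 kept their direction and side of the threshold, 45 lost a call, 39 gained one and none reversed; 7 that were called in neither fit had the other sign. Counts of called members moved by more than 1.5 times in a few settings. In persister against parental cells, 7 members were higher (main count 11) with no filter on low counts. With only the groups compared in the fit, 5 were higher and 4 lower (main counts 11 and 10), and in withdrawn against parental cells 4 were higher and 5 lower (main counts 0 and 0). These fits hold fewer libraries and estimate the spread without the third group, and the cause of the shifts was not tested. Leaving out 1 library at a time gave 11 to 12 higher and 16 to 17 lower in withdrawn against persister cells, 9 to 15 higher and 9 to 11 lower in persister against parental cells, and 0 in withdrawn against parental cells. With the replicate block, which also leaves out the parental library, 13 members were higher and 16 lower after withdrawal. Beside the main fit only the call of TEAD4 changed. Beside the unpaired fit of the same libraries, the calls of TEAD2, TEAD3 and TEAD4 differed. The lowest count of a member in a library was 21, and both comparisons with parental cells rest on 1 parental library.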
